A study of Mus musculus with 4 samples.

Results

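The proteasome genes were examined in the livers of fasted and re-fed mice. They were the genes on the array whose name begins with Psm, a letter from a to g and a digit, which gave 49 of 31829 gene names and 61 of 39429 probes. All livers came from male C57BL/6J mice, 8 to 12 weeks old, for which no transgene or deletion is named. The 4 fasted mice went without food for 24 h. The 4 re-fed mice went without food for 24 h and then had food for 2 h, so the prior fast was shared by both groups. Each of 4 two-colour arrays compared 1 fasted with 1 re-fed liver, paired at random, and the fasted liver was in Cy5 on replicates 1 and 2 and in Cy3 on replicates 3 and 4.

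The proteasome is the protease of the cytosol and nucleus that degrades proteins marked with ubiquitin. Its core particle is a barrel of 2 outer rings of alpha subunits (Psma), which gate the entry, and 2 inner rings of beta subunits (Psmb), which carry the active sites. The regulatory particle on its end has a base, with a ring of ATPases (Psmc) that unfolds the substrate, and a lid (most Psmd genes) that removes the ubiquitin. Other members are activators that replace the regulatory particle (Psme), an inhibitor (Psmf1), and chaperones that help to assemble the core (Psmg) or the base (Psmd5, Psmd9 and Psmd10) and leave the finished particle. In the fasted liver, protein breakdown supplies amino acids for gluconeogenesis, and refeeding restores protein synthesis.

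Each gene was measured by 60-base probes, and the sequences below, read from the array files, belong to the genes on which the results turn. Coordinates are in the mm9 build, and each probe printed has an open reading frame in the sense direction. The first pair are the base chaperones that changed in opposite directions, Psmd5 (chr2:34708108-34708167, minus strand) and Psmd9 (chr5:123691881-123691940, plus strand). Psmd14 (chr2:61599058-61599117, plus strand), the lid's deubiquitinase, had the lowest mean among the constitutive subunits.
Psmd5: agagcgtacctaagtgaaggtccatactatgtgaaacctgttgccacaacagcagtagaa
Psmd9: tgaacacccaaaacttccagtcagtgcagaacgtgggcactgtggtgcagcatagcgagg
Psmd14: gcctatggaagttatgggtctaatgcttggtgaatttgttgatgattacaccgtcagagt
The next pair shows how far the probes separate a standing catalytic subunit from its immune counterpart. Psmb5 (chr14:55233161-55233220, minus strand) and Psmb8 (chr17:34337771-34337830, plus strand) are paralogs, and these probes, the dimmer of the pair for Psmb5 and the brightest for Psmb8, covered matching stretches of coding sequence. Capitals mark the bases that are identical over the 50 aligned positions, 31 of 50 or 62.0%.
Psmb5: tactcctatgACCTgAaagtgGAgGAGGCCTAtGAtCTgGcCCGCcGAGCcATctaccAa
Psmb8: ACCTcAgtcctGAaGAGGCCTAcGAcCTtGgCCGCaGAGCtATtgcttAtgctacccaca

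A gene was measured by its brightest probe well above background, and 46 of the 49 names had one. The other 3 were Psmb11, the beta subunit of the thymus, Psma8, the alpha subunit of the testis, and Psmc3ip, a meiotic recombination factor that shares the name but is no proteasome subunit. All values are log2 ratios of fasted over re-fed liver, so that a positive value means more RNA in the fasted liver. A gene passed at an adjusted p under 0.10 (limma, Benjamini-Hochberg over 19740 kept probes) and was called where it also changed by at least 1.5-fold.

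In the main fit, limma without a dye term, the subunits that make up the standing proteasome did not pass. The genes that passed were assembly chaperones. Psmd9 was higher in the fasted liver, and Psmd5 and Psmg3 were lower. That is 1 of 46 genes passing higher, where 4.74% of all kept probes passed, and 2 of 46 passing lower, where 6.12% of all kept probes passed. Only Psmd5 was also called by its brightest probe, beside 1.70% of all kept probes called higher and 2.07% called lower. Over all probes these were 335 called higher and 409 called lower, a split that became 230 and 635 with median centring in place of loess. The proteasome genes as a whole did not pass more often than the background. With a dye term, 5 constitutive subunits passed lower as well, where 13.8% of all kept probes did. The list of passing genes moved with the processing, as given below.

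**Figure D1:**
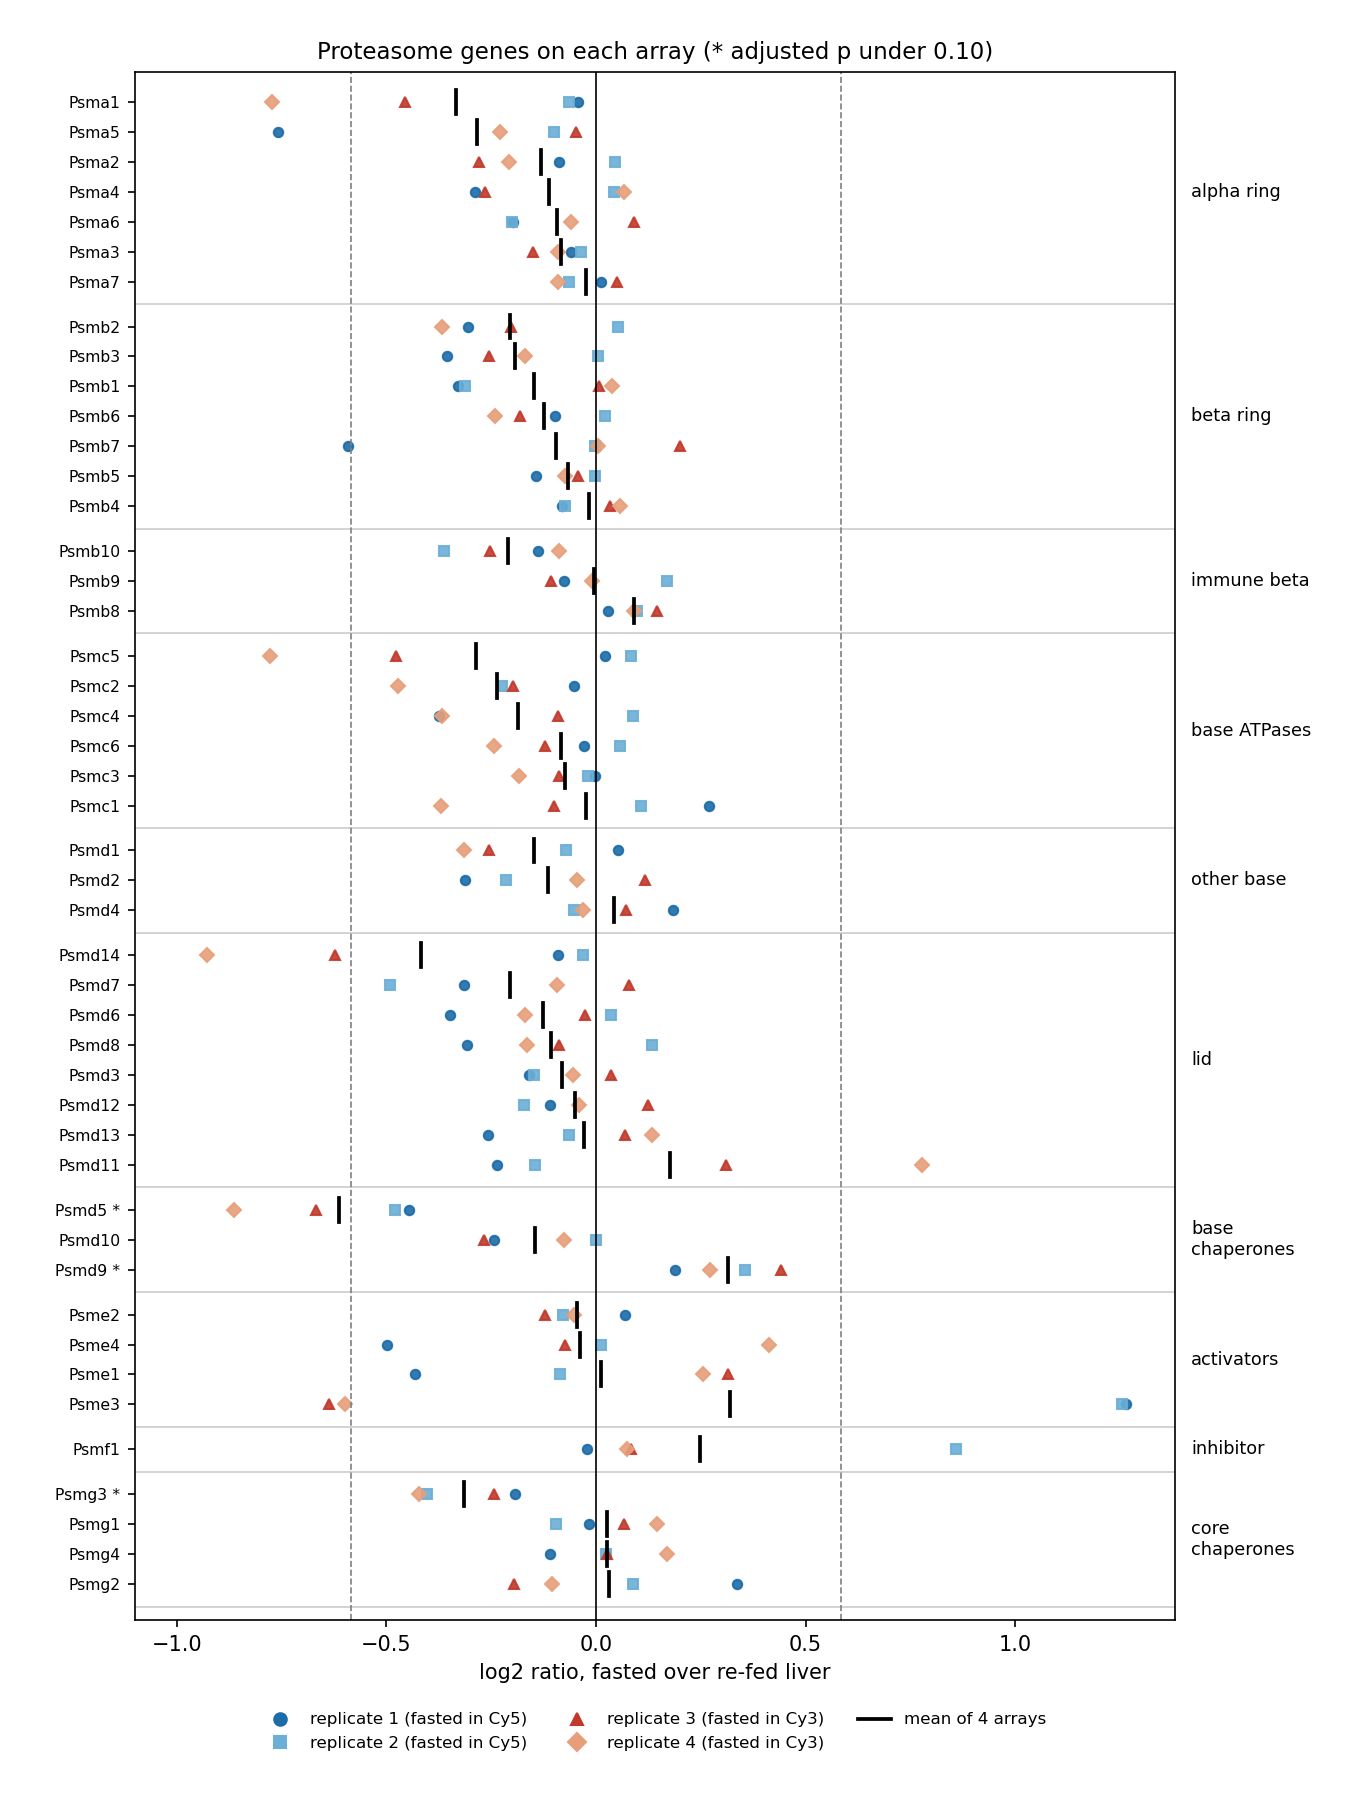
Log2 ratio of fasted over re-fed liver on each of 4 arrays (coloured points) and their mean (black bar) for the 46 measured proteasome genes, grouped by role; dashed lines mark 1.5-fold, and an asterisk marks an adjusted p under 0.10 (limma). Most means sit slightly left of 0, Psmd5 and Psmg3 lie below 0 and Psmd9 above 0 on all 4 arrays, and Psme3 falls into a high pair and a low pair by dye.

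Of the 31 constitutive subunits (7 alpha, 7 beta, 6 ATPases, 3 other base and 8 lid subunits), 0 passed in either direction by limma on background-corrected medians. At an unadjusted p under 0.05, 0 were higher, against 9.86% of all kept probes, and 3 were lower, against 11.7%. SAM at the same false discovery rate and no fold limit selected 1 of them, Psmd14, lower, beside 10.3% of all kept probes. Psmd14 also passed in limma on Agilent's processed signals, with a mean of -0.50 (adjusted p = 0.064). With the dye as a second term in limma, 0 passed higher, where 12.2% of all kept probes did, and 5 passed lower (Psma1, Psmc2, Psmc5, Psmd7 and Psmd14), where 13.8% did. The median of their means was -0.11, and the means ran from -0.42 (Psmd14) to 0.18 (Psmd11). The 95% interval lay wholly within 1.5-fold in either direction for 26 of 31 (83.9%), as it did for 83.3% of all kept probes.

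The means leaned to one side: 29 of 31 (93.5%) were below 0, against 50.2% of all kept probes. Among the 7095 kept probes within the brightness range of these subunits the share was 52.5%. The exceptions were Psmd4 and Psmd11, and neither stayed above 0 throughout. Psmd4 was at -0.0040 without replicate 1 and at -0.11 with median centring, which put the median of all kept probes at -0.058. Psmd11 was at -0.024 without replicate 4, and with normexp on all spots Psmd4 and Psmd11 were at -0.0094 and -0.018. The median over the 31 was -0.14, -0.035, -0.089 and -0.16 on replicates 1 to 4, while the median of all kept probes stayed between -0.0082 and -0.0030 on each array. All 4 medians were below 0, and 26, 20, 19 and 25 of the 31 genes were below 0 on replicates 1 to 4. Leaving out each array in turn gave 27 to 29 genes below 0. The SD of the 4 medians was 0.058. On all 4 arrays together, 7 of 31 (22.6%) were below 0 throughout, against 16% of all kept probes, and 0 of 31 were above 0 throughout, against 13.7%.

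The core and regulatory particles were set side by side. The 17 measured core genes (Psma and Psmb) had a median of -0.11, with 16 below 0, and the 24 regulatory genes (Psmc, Psmd and Psme) had a median of -0.083, with 19 below 0. The core medians were -0.14, -0.0024, -0.11 and -0.089 on replicates 1 to 4 and the regulatory medians -0.14, -0.042, -0.089 and -0.13. The core median minus the regulatory median was -0.0040, 0.039, -0.018 and 0.039, so neither particle was the lower one on all arrays. With constitutive subunits alone (the core without the immune subunits, the regulatory particle without the base chaperones and activators), the medians were -0.12 over 14 core genes and -0.11 over 17 regulatory genes, and the 4 differences were -0.062, 0.034, -0.011 and 0.080. The members of a particle are not replicates, and no test was made over them.

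**Figure D2:**
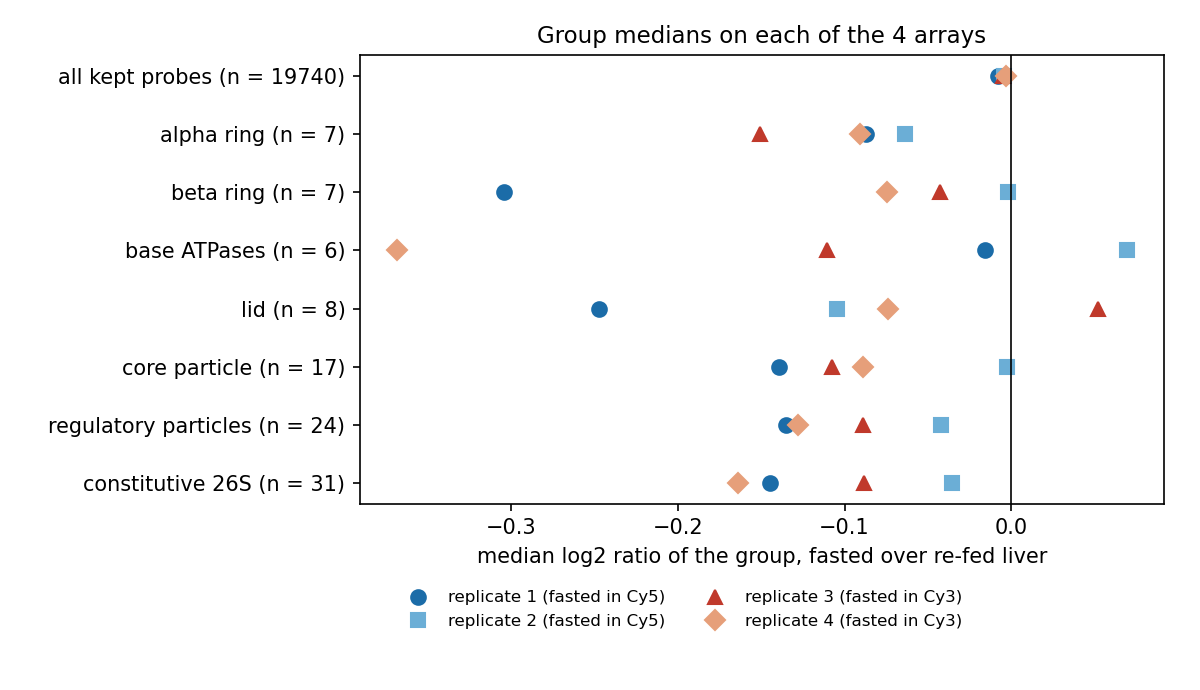
Median log2 ratio of fasted over re-fed liver (x axis) of each group of proteasome genes (rows, with the number of genes) on each of 4 arrays (points), beside all kept probes. Core and regulatory medians overlap and lie between -0.14 and 0. The beta ring, base ATPases and lid scatter more, the alpha ring does not, and these smaller groups change order from array to array.

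All 7 measured alpha subunits, which form the outer rings and the gate, had means below 0. Psma1 was the lowest, with ratios of -0.042, -0.066, -0.45 and -0.77 on replicates 1 to 4 and a mean of -0.33 ± 0.35 (SD, n = 4, adjusted p = 0.23). Its 2 low values were those of the arrays with fasted liver in Cy3. Psma7 was the highest, at 0.012, -0.064, 0.049 and -0.090 with a mean of -0.023 ± 0.065 (adjusted p = 0.90), and its ratios lay on both sides of 0. The other 5 had means between -0.28 (Psma5) and -0.084 (Psma3). None of the 7 passed.

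All 7 constitutive beta subunits also had means below 0 and none passed. Psmb5, which has the chymotrypsin-like active site, gave ratios of -0.14, -0.0024, -0.043 and -0.074 and a mean of -0.066 ± 0.060 (adjusted p = 0.66). Psmb6, which has the caspase-like site, gave -0.097, 0.022, -0.18 and -0.24 and -0.12 ± 0.11 (adjusted p = 0.42). Psmb7, which has the trypsin-like site, gave -0.59, -0.0017, 0.20 and 0.0052 and -0.097 ± 0.34 (adjusted p = 0.75). The second probe of Psmb5, whose sequence is printed above, was less even, at -0.62, -0.21, 0.046 and 0.019 with a mean of -0.19 ± 0.31 (adjusted p = 0.45). For both that probe and Psmb7, the lowest ratio was that of replicate 1. Psmb2, a beta subunit without an active site, was the lowest of the ring, at -0.30, 0.053, -0.20 and -0.37 with a mean of -0.21 ± 0.19 (adjusted p = 0.27). Psmb4, also without an active site, was the highest, at -0.082, -0.075, 0.034 and 0.058 with a mean of -0.016 ± 0.072 (adjusted p = 0.93). Neither left the range of the other beta subunits by more than its own spread.

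The immune subunits take the place of the catalytic subunits when interferon induces them, and cut peptides suited to display on MHC class I. Psmb8, which replaces Psmb5, gave ratios of 0.028, 0.097, 0.14 and 0.090 and a mean of 0.090 ± 0.048 (adjusted p = 0.52). Psmb9, which replaces Psmb6, gave -0.077, 0.17, -0.11 and -0.0092 and -0.0059 ± 0.12 (adjusted p = 0.98). Psmb10, which replaces Psmb7, gave -0.14, -0.36, -0.25 and -0.089 and -0.21 ± 0.12 (adjusted p = 0.19). The ratio of Psmb8 was above 0 and that of Psmb10 below 0 on all 4 arrays, and none of the 3 passed. With median centring in place of loess the mean of Psmb8 was -0.032, where the median of all kept probes was -0.058. In the separate livers, the normalized log2 intensity of Psmb10 was 12.08, 11.88, 11.96 and 12.08 in the fasted and 12.22, 12.24, 12.21 and 12.17 in the re-fed livers of replicates 1 to 4. Every fasted liver was below every re-fed liver, by 0.089 or more. The mean of Psmb10 passed where the model had a dye term (adjusted p = 0.090) and with median centring (adjusted p = 0.057).

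In the base of the regulatory particle, all 6 ATPases had means below 0 and none passed. Psmc5 was the lowest, with ratios of 0.021, 0.083, -0.48 and -0.78 and a mean of -0.29 ± 0.41 (adjusted p = 0.36), low on both arrays with fasted liver in Cy3 and near 0 on the others. Psmc1 was the highest, at 0.27, 0.11, -0.099 and -0.37 with a mean of -0.023 ± 0.28 (adjusted p = 0.94). Psmc1 was above 0 on the arrays with fasted liver in Cy5 and below 0 on the others. The other 4 had means between -0.24 (Psmc2) and -0.074 (Psmc3). Among the remaining base subunits, Psmd1, a large scaffold, gave 0.053, -0.071, -0.26 and -0.32 with a mean of -0.15 ± 0.17 (adjusted p = 0.41). Psmd4, a receptor for ubiquitin chains, gave 0.18, -0.052, 0.071 and -0.031 with a mean of 0.043 ± 0.11 (adjusted p = 0.82). Psmd2, the other scaffold, had a mean of -0.11 ± 0.19. The ratios of each of these 3 lay on both sides of 0.

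The lid held both the lowest and the highest mean of the constitutive subunits. Psmd14, the deubiquitinase whose probe is printed above, gave ratios of -0.090, -0.031, -0.62 and -0.93 and a mean of -0.42 ± 0.43 (adjusted p = 0.20). It was below 0 on all 4 arrays, but far below only where the fasted liver was in Cy3. Psmd11, a scaffold of the lid that helps to hold it to the core, gave -0.24, -0.15, 0.31 and 0.78 with a mean of 0.18 ± 0.47 (adjusted p = 0.64). It was above 0 only where the fasted liver was in Cy3. Both extremes depended on the processing and on replicate 4: Psmd14 was at -0.065 with normexp on all spots and at -0.25 without replicate 4, and the values of Psmd11 in those settings are given above. The other 6 lid genes had means between -0.21 (Psmd7) and -0.030 (Psmd13), and none of the 8 passed.

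The base chaperones hold subcomplexes of the base apart until they can be joined. Psmd5, which binds the ATPase Psmc2 and is released before the base joins the core, had ratios of -0.45, -0.48, -0.67 and -0.86 and a mean of -0.61 ± 0.19 (SD, n = 4, adjusted p = 0.021), a fall of 1.53-fold in the fasted liver. The normalized log2 intensity was 8.87, 9.03, 8.85 and 8.85 in the fasted livers and 9.31, 9.50, 9.52 and 9.72 in the re-fed livers. The groups did not overlap, and the highest fasted liver was 0.29 below the lowest re-fed liver. Psmd5 kept its direction under all 21 alternatives and passed in 19 of them. It missed the threshold without replicate 3, where the mean was -0.60 (adjusted p = 0.105), and with normexp fitted on all spots, where it was -0.28 (adjusted p = 0.56). Without replicate 4, Psmd5 passed but was under 1.5-fold, so it was not called.

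Psmd9, which binds the ATPase Psmc3 and carries a PDZ domain, had 2 probes, and both were higher in the fasted liver on all 4 arrays. The brighter probe, printed above, gave ratios of 0.19, 0.35, 0.44 and 0.27 and a mean of 0.31 ± 0.11 (adjusted p = 0.069), or 1.24-fold. The dimmer probe (chr5:123698524-123698583) gave 0.36, 0.64, 0.67 and 0.73 and a mean of 0.60 ± 0.17 (adjusted p = 0.02), or 1.51-fold, past both limits. The dimmer probe did not pass without replicate 3, at 0.58 (adjusted p = 0.101), or with normexp on all spots, at 0.27 (adjusted p = 0.56), and with median centring it was at 0.51, under 1.5-fold. Without replicate 4 the dimmer probe was also under 1.5-fold. The means of the 2 probes differed by 0.29 on the log2 scale. The intensities were spread more widely between arrays than the change, and the 2 livers on an array were high or low together. A difference between livers and one between arrays cannot be told apart here. With the brighter probe the normalized log2 intensity was 10.30, 9.83, 9.69 and 9.50 in the fasted and 10.11, 9.47, 9.25 and 9.22 in the re-fed livers, so the groups overlapped while each fasted liver exceeded the re-fed liver on its own array. Where each liver was fitted as a separate sample, without its array, the brighter probe did not pass (adjusted p = 0.52), nor did the dimmer one (adjusted p = 0.17).

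Psmd10, also called gankyrin, binds the ATPase Psmc4. Its ratios were -0.24, -0.00017, -0.27 and -0.076 with a mean of -0.15 ± 0.13 (adjusted p = 0.36), below 0 on every array, though barely on replicate 2, and it did not pass. Of the 3 base chaperones, then, 1 passed lower, 1 passed higher and 1 passed in neither direction.

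**Figure D3:**
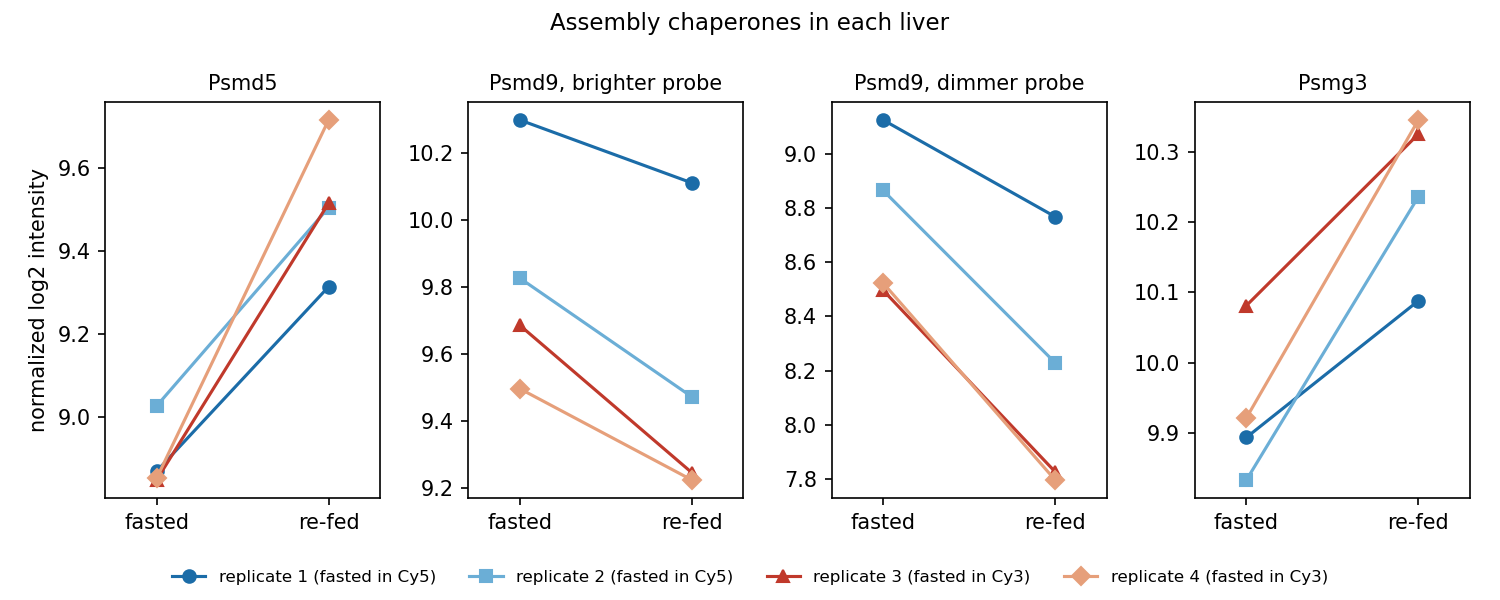
Normalized log2 intensity (y axis, a separate scale in each panel) in the fasted and re-fed liver of each array, joined by a line, for Psmd5, both probes of Psmd9, and Psmg3. All 4 lines rise from fasted to re-fed for Psmd5 and Psmg3 and fall for both Psmd9 probes, and the fasted and re-fed livers overlap only for Psmd9.

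The core chaperones Psmg1 to Psmg4 act in pairs, Psmg1 with Psmg2 and Psmg3 with Psmg4, to build the alpha ring. Psmg3 had ratios of -0.19, -0.40, -0.24 and -0.42 and a mean of -0.32 ± 0.11 (adjusted p = 0.07), or 1.24-fold lower in the fasted liver. Its normalized log2 intensity was 9.89, 9.83, 10.08 and 9.92 in the fasted and 10.09, 10.24, 10.32 and 10.34 in the re-fed livers. The groups did not overlap, but the gap between them was only 0.0068. Its partner Psmg4 had a mean of 0.027 ± 0.11 (adjusted p = 0.89), with ratios on both sides of 0. Psmg2 was the highest of the 4, at 0.34, 0.087, -0.19 and -0.10 with a mean of 0.031 ± 0.23 (adjusted p = 0.91), and Psmg1 had a mean of 0.026 ± 0.10 (adjusted p = 0.90). Neither lay beyond its spread. Psmg3 and the brighter probe of Psmd9 were both near the threshold, passing in 15 of 21 and 12 of 20 alternatives that gave them. Without replicate 2, 3 or 4 neither passed, and the adjusted p then ran from 0.18 to 0.27, with means of -0.34 to -0.28 for Psmg3 and 0.27 to 0.33 for Psmd9.

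The activators open the core in place of the base and lid. Psme1 and Psme2, which together form the interferon-induced cap PA28, gave ratios of -0.43, -0.086, 0.31 and 0.25 with a mean of 0.012 ± 0.34 (adjusted p = 0.97), and 0.069, -0.079, -0.12 and -0.054 with a mean of -0.046 ± 0.082 (adjusted p = 0.78). Both means were near 0, and the sign of Psme1 followed the dye. The probes of Psme2 also list a second transcript, on chromosome 11, so its reading may hold both; the probe assigned to that second transcript alone was not kept. Psme4, the nuclear cap PA200, gave -0.50, 0.011, -0.074 and 0.41 with a mean of -0.037 ± 0.37 (adjusted p = 0.92), and its second probe had a mean of the opposite sign, 0.057 ± 0.20. Psmf1, which encodes an inhibitor of the core, gave -0.020, 0.86, 0.083 and 0.075 with a mean of 0.25 ± 0.41 (adjusted p = 0.43). Its mean rested on replicate 2, and the other 3 ratios were within 0.083 of 0.

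Psme3, the activator of the nucleus, changed sign with the dye. Its ratios were 1.26, 1.25, -0.64 and -0.60, high with fasted liver in Cy5 and low with it in Cy3, and its mean was 0.32 ± 1.08 (adjusted p = 0.70). The dye term was 0.94 (Cy5 over Cy3, log2; adjusted p = 0.0033), the largest of the 46 genes. Its probe is rich in alternating T and G: TG or GT made up 52.5% of its neighbouring base pairs, where the median of all kept probes was 13.6%, and 52 of 19740 kept probes reached as much. A part of this composition in the dye term was not tested.

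A dye term at an adjusted p under 0.10 was found in 6 of the 46 genes, Psma1, Psmc5, Psmd11, Psmd14, Psme1 and Psme3, near the share of 14.7% among all kept probes. Across the 46 genes, ratios of arrays with the same orientation had Pearson's r of 0.62 and 0.82, and those of arrays with opposite orientation had r of -0.26 to -0.020. Over all kept probes the corresponding values were 0.66 and 0.75, and 0.22 to 0.40. These are descriptions across genes, which share the same 8 livers and dyes. Across the 46 genes, then, arrays of the same dye orientation had the more similar ratios. Psme3, with the largest dye term, is among the 46, and r without it was not computed. With the dye as a second term in the model, 2 of 46 genes passed higher (Psmd9 and Psme3), where 12.2% of all kept probes did, and 8 passed lower (Psma1, Psmb10, Psmc2, Psmc5, Psmd5, Psmd7, Psmd14 and Psmg3), where 13.8% did. The means are the same in both models, and the dye term takes up part of the residual.

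**Figure D4:**
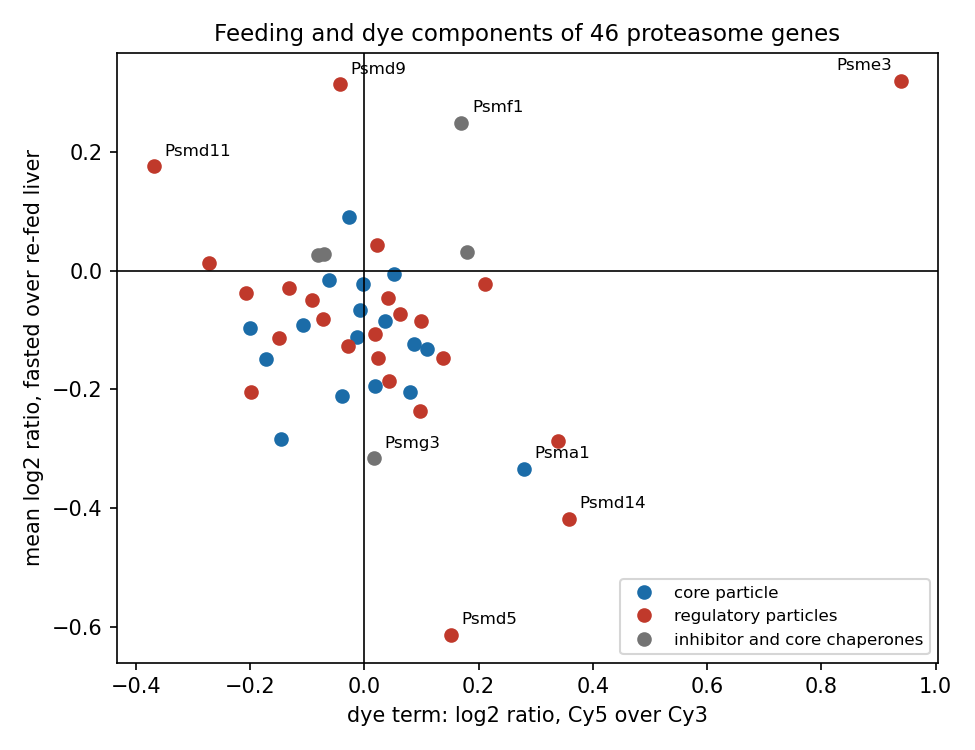
Mean log2 ratio of fasted over re-fed liver (y axis) against the dye term, the log2 ratio of Cy5 over Cy3 (x axis), for 46 proteasome genes coloured by particle. Psme3 stands apart at a dye term of 0.94, Psmd9 and Psmg3 lie far from 0 in their means but close to 0 in their dye terms, Psmd5 has the lowest mean, and Psmd14 and Psma1 are far from 0 on both axes.

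A second kept probe was present for 11 of the genes, and in 9 of these both means had the same sign. The exceptions were Psme4 and Psmg1. Psmg1 had a mean of -0.14 ± 0.062 by its second probe, against 0.026 ± 0.10 by the brighter one. The 2 probes of a gene differed by at most 0.29, the difference seen for Psmd9.

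The proteasome acts with a larger set of factors, and 26 such genes were examined, without some listed genes that are not reported. Of these 26, 17 had means below 0, with a median of -0.12, and 3 passed lower, beside 6.12% of all kept probes. That median was close to the median of the constitutive subunits, -0.11. Zfand2a, a zinc finger protein of the heat shock response that binds the proteasome, had ratios of -0.44, -0.71, -0.50 and -0.85 and a mean of -0.62 ± 0.19 (adjusted p = 0.02), lower in the fasted liver on all 4 arrays. The shuttle factors Ubqln4, with a mean of -0.36 ± 0.10 (adjusted p = 0.047), and Ubqln1, with a mean of -0.30 ± 0.077 (adjusted p = 0.067), which carry ubiquitinated proteins to the proteasome, were also lower on all 4 arrays. Nfe2l1, the transcription factor that raises proteasome genes when the proteasome is blocked, had a mean of 0.16 ± 0.28 (adjusted p = 0.51), and Pomp, which matures the core, had a mean of -0.19 ± 0.065 (adjusted p = 0.18). Ubb and Rps27a, which encode ubiquitin, had means of 0.017 ± 0.16 (adjusted p = 0.94) and -0.064 ± 0.33 (adjusted p = 0.84).

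Of 9 genes of MHC class I and interferon signalling described beside the immune subunits, 1 passed higher and 1 lower, beside 4.74% and 6.12% of all kept probes. Nlrc5, the activator of MHC class I genes, was higher in the fasted liver, with ratios of 1.03, 0.83, 0.29 and 0.42 and a mean of 0.64 ± 0.34 (adjusted p = 0.049). Irf1, an interferon-induced activator, was lower, with ratios of -0.89, -0.84, -0.67 and -0.49 and a mean of -0.72 ± 0.18 (adjusted p = 0.014). The other 7, among them Tap1, Tap2 and B2m, had means between -0.092 and 0.16 and did not pass, and neither did Psmb8, Psmb9 and Psmb10.

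Promoters of 41 of the 49 genes were found in RefSeq (GRCm38.p6), 44 windows from 250 bases before to 50 after a start. They were searched on both strands for exact matches of motifs bound by known regulators. TGACG, the partial cAMP response element that CREB binds, was in 20 of 44 (45.5%), against 20.8% of 32851 promoters. The full element TGACGTCA was in 0 of 44, against 1.79%. GGGCGG, the GC box, was in 24 of 44 (54.5%), against 35.7%, and CCAAT was in 15 of 44 (34.1%), against 37.4%. TGACNNNGC, the antioxidant response core bound by the Nfe2l1 and Nfe2l2 proteins, was in 6 of 44 (13.6%), against 12.4%, and GAANNTTC, the heat shock element core, was in 3 of 44 (6.82%), against 7.86%. The 44 include both overlapping windows of Psme2, each with TGACG and GGGCGG, and that of Psmc3ip, which is no subunit. TGACG and GGGCGG both contain CG, and the promoters were not matched for CG content. A match describes the letters of these windows, not binding.

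The windows of the base chaperones that changed in opposite directions are shown, with every match in capitals. That of Psmd5 (chr2:34870913-34871212, minus strand) held TGACG once, read on the opposite strand, and GGGCGG 3 times. That of Psmd9 (chr5:123227940-123228239, plus strand) held TGACNNNGC once, which overlaps its single GC box. The window of Psmg3 held none of the motifs.
Psmd5: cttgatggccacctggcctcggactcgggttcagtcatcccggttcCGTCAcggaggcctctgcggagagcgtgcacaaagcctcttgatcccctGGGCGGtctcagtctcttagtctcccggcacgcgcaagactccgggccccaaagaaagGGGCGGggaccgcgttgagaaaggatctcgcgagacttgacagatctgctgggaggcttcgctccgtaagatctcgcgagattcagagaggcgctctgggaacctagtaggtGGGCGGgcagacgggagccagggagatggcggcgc
Psmd9: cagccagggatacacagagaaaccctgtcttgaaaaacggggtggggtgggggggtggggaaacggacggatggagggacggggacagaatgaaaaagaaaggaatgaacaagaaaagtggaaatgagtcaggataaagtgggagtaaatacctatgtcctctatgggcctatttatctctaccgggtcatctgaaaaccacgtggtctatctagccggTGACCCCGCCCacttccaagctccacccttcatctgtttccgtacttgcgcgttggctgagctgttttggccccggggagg

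Cell type markers were read on the same arrays. The hepatocyte list was bright in all 8 livers, with a summed level of 18.68 to 19.17 on the log2 scale. Its median ratio was 0.39, 0.48, -0.17 and -0.20 on replicates 1 to 4, so its sign turned with the dye, and 4 of its 6 genes had a dye term at an adjusted p under 0.10. Of 8 leukocyte genes 5 were kept, with median ratios of 0.43, -0.24, 0.26 and -0.031. Pancreatic acinar genes stood apart in the re-fed liver of replicate 3, with a summed level of 14.07 against 8.68 to 9.96 in the other 7 livers. Clps, Ctrb1 and Cel were the 3 of 10 acinar genes that were kept. Red cell genes were higher in the fasted livers of replicates 1 and 3, with summed levels of 16.21 and 16.89 against 13.89 to 15.09 elsewhere. Their part in the results was not tested. On replicate 3 the median of the constitutive subunits was -0.089, inside the range of the other arrays. Without replicate 3, the constitutive subunits had a median of -0.11 with 28 of 31 below 0, 0 of the 46 genes passed in either direction, and the means of Psmd5, Psmd9 and Psmg3 were -0.60, 0.27 and -0.34. In bulk liver, fewer cells of a type and less RNA per cell cannot be told apart.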

How the data were processed

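Total RNA of individual livers (200 ng each) was labelled with Cy3 or Cy5 and hybridised to 4 two-colour Agilent arrays of 1 slide and 1 scan. Per the file headers, Feature Extraction 10.10.1.1 quantified them. The deposited scanner files give the intensity of 44397 spots per array with local background and flags. The authors also deposited log2 ratios normalized by loess in limma, used here as an alternative.

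Median intensities were background-corrected in limma 3.58.1 (R 4.3.3) by normexp with an offset of 50, without the 55 spots whose local background exceeded 3 times the array median. Ratios were normalized by loess within arrays. Control spots and outlier-flagged spots (197 to 322 per array) were left out, and no spot was saturated. A probe entered the test when the fasted channel, the re-fed channel or both exceeded background clearly on each array, and 19740 of 39429 did. The 4 ratios, turned to fasted over re-fed, were tested with lmFit and eBayes, two-sided, with no dye term. Separate livers were read from the normalized channels scaled between arrays on mean intensity. The number of arrays limits the precision.

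Full values are given for genes that passed, the catalytic and immune beta subunits, the activators, the inhibitor, and the highest and lowest gene of each group. Members, lists and processing were chosen with earlier results of these data known. The script was tested on simulated data, with changes larger than any proteasome mean here and independent noise without a dye effect. The alternatives covered background, signal, normalization, filters, flags, dye, probes, test and each array left out. Sequences came from the array files and RefSeq. Of the listed genes, Paaf1 and Ddi2 were not analysed here, and a few others are not reported here.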

Additional observations from a re-analysis of the deposited data

Results flagged for a closer look

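Each of the 46 measured genes and the medians of the core and regulatory particles was checked for 1 array far from the other 3, by Dixon's ratio of the gap to the range. Of these 48 checks, 1 was past the limit, Psmf1, the inhibitor of the core particle, with a ratio of 0.882. Its log2 ratios of fasted over re-fed liver were -0.020, 0.86, 0.083 and 0.075 on replicates 1 to 4, so that replicate 2 stood apart. Chance alone puts about 1 group in 20 past this limit.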

How the results depend on the processing

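The medians of the core and regulatory particles stayed below 0 under every alternative that gave them, from -0.26 to -0.089 for the core and from -0.22 to -0.071 for the regulatory genes. Median centring gave the lowest of each, -0.26 and -0.22. The lists of passing genes were short and moved with the processing. With normexp on all spots, 5 probes were called higher and 15 lower, 0 proteasome genes passed in either direction and 0 were called. With background subtraction these were 550 and 713 probes, and 0 genes passed higher and 1 lower. With Agilent's processed signals, 685 probes were called higher and 904 lower, 0 genes passed higher, and Psmd14 (adjusted p = 0.064) passed lower while Psmg3 (adjusted p = 0.11) did not. With median centring, 635 probes were called lower, and 0 genes passed higher. With a dye term, 2 genes passed higher and 8 lower, and Psmd14 (adjusted p = 0.014), Psma1 (adjusted p = 0.029) and Psmc5 (adjusted p = 0.043) joined them. With the livers as separate samples and no replicate block for the shared array, 0 genes passed higher. With no fold limit, 936 probes were called higher and 1208 lower, and 1 and 2 genes. Leaving out 1 array gave 203 to 413 probes called higher and 252 to 529 lower, 0 to 1 gene passing higher and 0 to 2 lower, 0 genes called higher and 0 to 1 lower, and medians of -0.13 to -0.089 for the core and -0.11 to -0.071 for the regulatory genes. The lowest counts were those without replicate 3. The means of Psmd5, Psmd9 and Psmg3 kept their sign in all 21 alternatives. The cause of these differences was not tested.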
